A study of Homo sapiens with 18 samples.

Results

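GDF15 and GDF9 encode secreted proteins of the transforming growth factor beta (TGF-beta) superfamily, and their transcripts were followed here across 18 Affymetrix Gene arrays. The pair is 2 of the 18417 genes that could be named from a probe set with a single symbol, and each has 1 such probe set (8027002 for GDF15 and 8114080 for GDF9). They were chosen from these same arrays for their levels with the p53 constructs and for how those levels differed from WTp53, so their values are given as a description, with no p-value. The cells were NCI-H1299, a non-small cell lung carcinoma line without p53, transiently transfected with a plasmid that also encodes green fluorescent protein (pIRES-2EGFP). Green cells were sorted and RNA was taken 40 hours after transfection. The 9 arrays of the first set come from cells given WTp53 (the wild-type protein), the empty vector, or ΔNp53:WTp53, a construct named for WTp53 together with ΔNp53, an isoform that lacks the N-terminus, each in experiments 0, 4 and 5. The second set of 9 arrays, which the series calls control experiments, holds empty vector, WTp53 and tethered WTp53, each in experiments d, e and f. The labels of the tethered arrays disagree, since titles and descriptions give tethered WTp53 and another field gives ΔNp53:WTp53; the titles were followed. All groups share the same line, the same vector backbone and transient overexpression from a plasmid. The level of the transfected p53 itself was not analysed here, so a difference between constructs and a difference in their dose cannot be told apart.

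GDF15 is a stress-induced cytokine that acts through the receptor GFRAL with its partner RET, and p53 is among its known activators, beside transcription factors of the integrated stress response and EGR1. GDF9 is best known as a factor made by oocytes. It signals through the type II receptor BMPR2 and the type I receptor TGFBR1 to SMAD2 and SMAD3, and acts in the ovary together with BMP15. Both proteins are made as precursors that are cut by proprotein convertases before they act.

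The region just upstream of GDF15 is shown because its transcript was higher with every p53 construct than with vector. It is 250 bases on the plus strand of GRCh38.p14 (RefSeq), at chr19:18385908-18386157, with a TATA box (TATAAA) and the GC boxes (GGGCGG, on either strand) in capitals.
GDF15 upstream: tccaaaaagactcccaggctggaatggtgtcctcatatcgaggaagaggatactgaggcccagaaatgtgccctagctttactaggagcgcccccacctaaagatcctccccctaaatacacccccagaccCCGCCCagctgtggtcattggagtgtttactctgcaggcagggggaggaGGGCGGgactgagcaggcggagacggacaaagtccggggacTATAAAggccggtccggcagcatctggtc
The stretch nearest to the consensus of a p53 response element, a pair of adjacent 10-base repeats, lay at chr19:18386186-18386205 on the plus strand, from position 29 when the start site is 1. Capitals mark the bases that fit the consensus.
GDF15 element: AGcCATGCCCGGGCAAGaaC
It had 3 mismatches over 20 bases, and 5.2% of 35116 promoter windows of the same 300 bases held a stretch with as few. The 4 windows listed for GDF9 had 5 mismatches at best, which 70.5% of windows matched or bettered. TATAAA occurred in 11.5% and GGGCGG in 45.0% of all windows, counting both strands, and neither occurred in the GDF9 windows. TGACGTCA (1.8% of windows), TGANTCA (7.7%) and GCGGGGGCG (5.1%), sequences bound by ATF, AP-1 and EGR factors, occurred in no window of either gene. These matches describe letters only and were not tied to binding. GDF9 starts head to head with UQCRQ, a subunit of respiratory complex III. The outermost GDF9 start overlaps the UQCRQ gene by 10 bases, shown in capitals on the GDF9 strand (minus) at chr5:132866632-132866661 of GRCh38.p14, since UQCRQ is described beside GDF9 further on.
GDF9 and UQCRQ overlap: ccgatccggtTGACTCGTTCgtcatttccg

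Values are log2 intensities that the authors normalized, and a difference of 1 is a 2-fold change. The sets were normalized apart, with array medians of 4.89 to 4.97 in the first and 7.01 to 7.07 in the second, so levels were compared only within a set. A probe set's level also depends on its probes, so GDF15 and GDF9 levels were not compared with each other. The number of arrays limits the precision. No 2 arrays held identical values, and replicates of a group differed most with ΔNp53:WTp53, where a gene's median SD was 0.151, against 0.104 to 0.109 in its set's other groups and 0.049 to 0.069 for the second set. The series states that experiments 0, 4 and 5 were independent transfections and does not say so for d, e and f, so the spread in the second set may be technical. In bulk RNA, fewer expressing cells and less RNA per cell cannot be told apart. Standard errors (SE) come from a limma fit over all genes and arrays, and n is 3 arrays in every group.

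GDF15 was higher than with vector under every p53 construct, less so with ΔNp53:WTp53 than with WTp53 and more so with tethered WTp53. Comparisons within a set share arrays, so their values are given side by side. In the first set GDF15 read 5.30, 5.35 and 5.04 with empty vector in experiments 0, 4 and 5. With WTp53 it read 8.15, 8.21 and 8.22. With ΔNp53:WTp53 it read 6.81, 6.86 and 7.21. The ΔNp53:WTp53 arrays thus lay between the others, and the 3 groups did not overlap. The group means were 5.23 ± 0.16, 8.19 ± 0.04 and 6.96 ± 0.22 (SD, n = 3). WTp53 exceeded vector by 2.96 ± 0.11 (SE), a 7.79-fold difference, in a comparison where 43.7% of all genes passed the test. ΔNp53:WTp53 exceeded vector by 1.73 ± 0.11, or 3.31-fold, where 46.8% of genes passed. GDF15 was therefore 2.35-fold lower with ΔNp53:WTp53 than with WTp53, a log2 difference of −1.23 ± 0.11 (14.6% of genes passed). Within experiments 0, 4 and 5 that difference was −1.34, −1.35 and −1.02.

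In the second set GDF15 was highest with the tethered construct, not with WTp53. GDF15 read 7.51, 7.46 and 7.59 with vector in experiments d, e and f. It read 10.08, 10.15 and 10.13 with WTp53, and 11.54, 11.36 and 11.12 with tethered WTp53. The tethered arrays were the highest and again no groups overlapped, with means of 7.52 ± 0.07, 10.12 ± 0.04 and 11.34 ± 0.21 (SD, n = 3). WTp53 exceeded vector by 2.60 ± 0.11 (6.06-fold; 19.6% of genes passed) and tethered WTp53 by 3.82 ± 0.11 (14.1-fold; 33.7% of genes passed). GDF15 was thus higher with tethered WTp53 than with WTp53 by 1.22 ± 0.11, or 2.33-fold (10.1% of genes passed), and by 1.46, 1.21 and 0.99 within the experiments. Of all genes, 1 differed from WTp53 at least 2-fold downwards with ΔNp53:WTp53 and at least 2-fold upwards with tethered WTp53, and that gene was GDF15. The difference ranked 25th from the lowest of 18417 in the first set and 6th from the highest in the second. The pair was chosen for such differences, so this count and these ranks restate the choice and are no support for it. The same holds for the rank of GDF9, wherever other genes are counted above or below the pair, and wherever their differences are called smaller than those of the pair.

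GDF9 was higher with WTp53 than with vector, and much less so with either other construct. In the first set it read 4.00, 4.16 and 4.14 with vector, 6.92, 7.43 and 7.13 with WTp53, and 4.42, 4.61 and 4.60 with ΔNp53:WTp53. The ΔNp53:WTp53 arrays were close to vector, with a gap of 0.26 between the groups, while the gap to the lowest WTp53 array was 2.31. The means were 4.10 ± 0.08 with vector, 7.16 ± 0.26 with WTp53 and 4.54 ± 0.11 with ΔNp53:WTp53 (SD, n = 3). WTp53 exceeded vector by 3.06 ± 0.12 (8.36-fold) and ΔNp53:WTp53 exceeded it by 0.44 ± 0.12 (1.36-fold). GDF9 was 6.15-fold lower with ΔNp53:WTp53 than with WTp53, at −2.62 ± 0.12, the lowest of all 18417 differences. Within experiments 0, 4 and 5 it was −2.50, −2.82 and −2.53.

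In the second set GDF9 read 5.90, 6.23 and 6.36 with vector. It read 8.07, 8.05 and 8.05 with WTp53, and 7.12, 7.09 and 7.0 with tethered WTp53. The tethered arrays lay between vector and WTp53, and the groups did not overlap, with means of 6.16 ± 0.24, 8.06 ± 0.01 and 7.07 ± 0.06 (SD, n = 3). WTp53 exceeded vector by 1.89 ± 0.12 (3.71-fold), and tethered WTp53 exceeded it by 0.91 ± 0.12 (1.87-fold). GDF9 was 1.98-fold lower with tethered WTp53 than with WTp53, at −0.99 ± 0.12, and the difference was −0.95, −0.96 and −1.05 within experiments d, e and f. The pair thus moved the same way against WTp53 with ΔNp53:WTp53 and opposite ways with tethered WTp53. No exact test was run, since 3 arrays against 3 cannot give a two-sided p below 0.1.

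**Figure D1:**
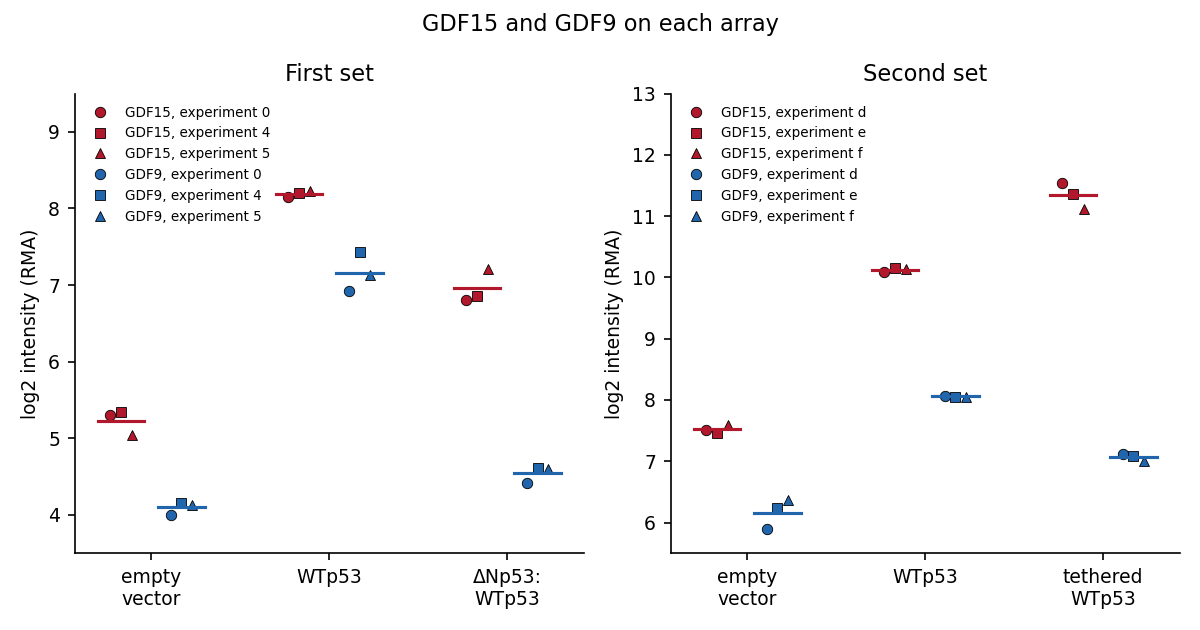
Log2 intensity of GDF15 (red) and GDF9 (blue) on each array, by transfected construct, for the first set (left, experiments 0, 4 and 5) and the second set (right, experiments d, e and f); lines are group means and the vertical axes differ because the sets were normalized apart. GDF15 is highest with WTp53 in the first set and with tethered WTp53 in the second, while GDF9 is highest with WTp53 in both.

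The SE depended on which arrays supplied the spread. Fitted on its own set, GDF15 had an SE of 0.12 in the first set and 0.087 in the second, and GDF9 had 0.13 and 0.094. Fitted on the 6 arrays of a comparison, it ranged from 0.044 to 0.14 for both genes. The groups compared did not overlap, so leaving out 1 array could not change the sign of any of the 12 differences. The loss of 1 array moved the GDF15 difference between ΔNp53:WTp53 and WTp53 to values from −1.36 to −1.16, and that of GDF9 to values from −2.74 to −2.48.

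CDKN1A (the cell cycle inhibitor p21) and MDM2 (the ubiquitin ligase that limits p53), the reference targets of p53, showed smaller differences between the constructs than GDF15 and GDF9, and the gap between them was not tested. The pair was chosen for such differences, so the gap restates that choice. CDKN1A exceeded vector by 4.62 ± 0.21 with WTp53 and 3.69 ± 0.21 with ΔNp53:WTp53, and by 3.13 ± 0.21 and 3.22 ± 0.21 with WTp53 and tethered WTp53 of the second set. Its difference from WTp53 was −0.93 ± 0.21 with ΔNp53:WTp53 (limma adjusted p = 0.00658, and 0.100 with the first set fitted alone) and 0.09 ± 0.21 with tethered WTp53 (limma adjusted p = 0.837). For MDM2 the differences were −0.31 ± 0.11 and 0.17 ± 0.11 (limma adjusted p = 0.0625 and 0.378). MDM2 exceeded vector by 3.41 ± 0.11 with WTp53 of the first set and 2.11 ± 0.11 with that of the second. SERPINB5, a serpin also known as maspin, followed GDF9 in direction: it was lower than with WTp53 at −1.98 ± 0.12 with ΔNp53:WTp53 (limma adjusted p = 1.52e-07) and at −0.60 ± 0.12 with tethered WTp53 (limma adjusted p = 0.00642). Against vector SERPINB5 was higher by 2.33 ± 0.12 with WTp53 of the first set and by 1.48 ± 0.12 with that of the second.

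Of 25 p53 targets listed beside the pair 23 were measured. With WTp53 23 of 23 rose in the first set and 21 of 23 in the second (100% and 91.3% called, against 43.7% and 19.6% of all genes). Their median differences were 1.58 and 1.15, against medians over all genes of 0.02 and −0.02. Between ΔNp53:WTp53 and WTp53 6 of the 23 were lower and 1 was higher (30.4%, against 14.6% of all genes), with a median of −0.14. Of the 23, 1 lay below GDF15 here (SERPINB5) and 0 below GDF9. Between tethered WTp53 and WTp53 6 were higher and 2 lower (34.8%, against 10.1% of all genes), with a median of 0.13. Here 1 of the 23 lay above GDF15, namely PLK3, a stress-responsive polo-like kinase at 2.04 ± 0.17 (singled out after its value was seen), and 0 lay below GDF9. With the set alone as the source of the spread 3 targets passed in the first set and 13 in the second. In these fits 2.44% and 32.4% of all genes passed. Between tethered WTp53 and WTp53 the count of 8 became 4 without the WTp53 array of experiment d, and 5 without that of experiment e or f or without the tethered array of experiment d.

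**Figure D2:**
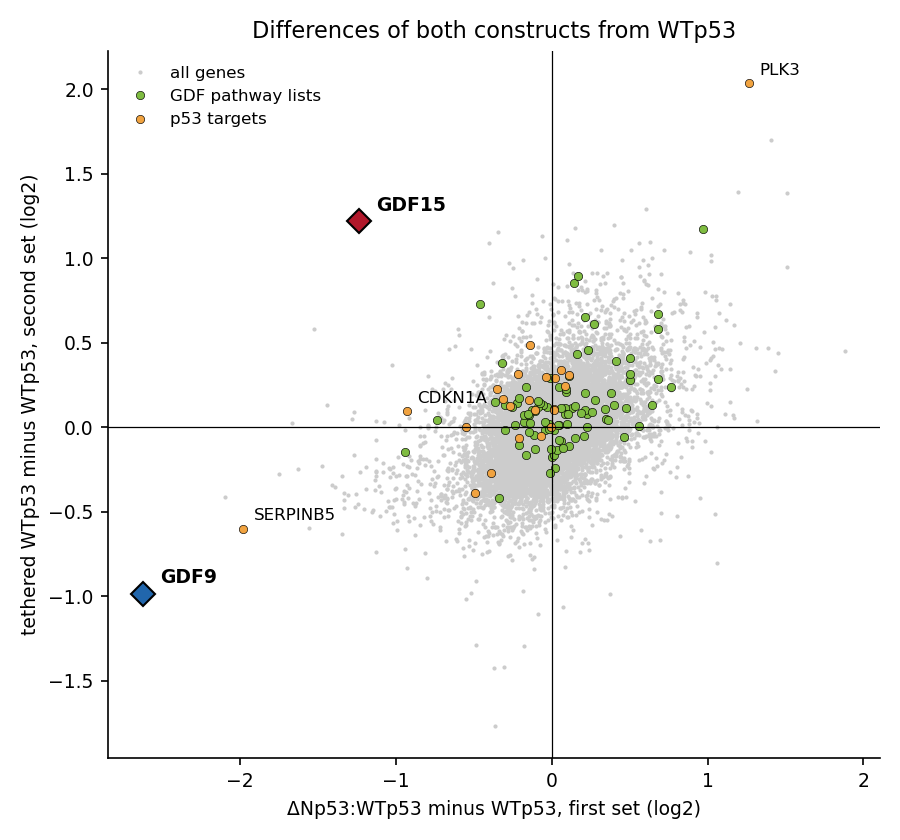
Each point is a gene, placed by its log2 difference between ΔNp53:WTp53 and WTp53 in the first set (horizontal) and between tethered WTp53 and WTp53 in the second set (vertical), with the p53 targets in orange and the GDF pathway lists in green. The axes share no array; GDF15 lies at −1.23 and 1.22, in the upper left, and GDF9 at −2.62 and −0.99, in the lower left.

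The genes whose profiles lay nearest were found by the root mean square (RMS) difference over the 18 arrays, after each gene's mean over a set was subtracted. For GDF15 they were GRAMD2B (RMS 0.416 in log2), ACTA2, a smooth muscle actin (0.459), the sodium channel subunit SCN3B (0.470), TMTC1 (0.478) and ABHD4 (0.493). All 5 lay below WTp53 with ΔNp53:WTp53, at −0.60 to −0.22, and above it with tethered WTp53, at 0.42 to 0.66, so their differences were smaller than those of GDF15. With ΔNp53:WTp53 GRAMD2B, SCN3B and ABHD4 did not pass (limma adjusted p = 0.195, 0.285 and 0.107). With the first set fitted alone none of the 5 did (limma adjusted p at least 0.0790). With tethered WTp53 SCN3B did not pass (limma adjusted p = 0.0531, and 1.45e-04 with the second set fitted alone). For GDF9 the nearest were SERPINB5 (RMS 0.296), CLCA2, a regulator of chloride conductance (0.391), the adhesion receptor ADGRG1 (0.479), the small heat shock protein CRYAB (0.516) and DAW1 (0.523). These 5 lay below WTp53 with ΔNp53:WTp53, at −2.10 to −1.41. With tethered WTp53 the differences of 4 of them were −0.60 to −0.28 and that of CRYAB was 0.13, so GDF9 was the lowest of these genes in both sets. Of the 5 only SERPINB5 passed there (limma adjusted p of the others 0.247 to 0.628). With the second set fitted alone CLCA2, ADGRG1 and DAW1 passed too (limma adjusted p = 0.00456 to 0.0201). GDF15 and GDF9 were not near each other: their RMS difference was 0.995, GDF9 ranked 448th in nearness to GDF15, and GDF15 ranked 1510th in nearness to GDF9. All of the arrays enter this measure, so it describes the arrays and tests nothing.

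**Figure D3:**
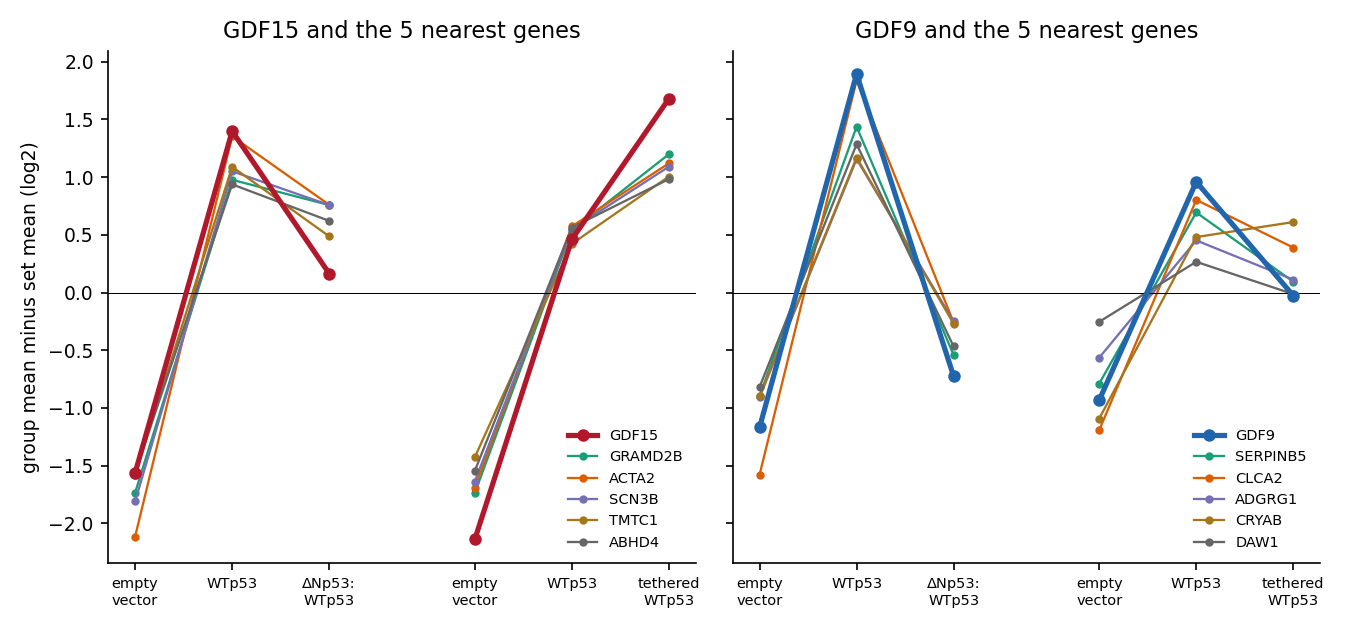
Group means minus the mean of the gene over its set (log2) for GDF15 (left, thick red) and GDF9 (right, thick blue) with the 5 genes of smallest RMS difference, over the 3 groups of each set. The genes beside GDF15 turn down less with ΔNp53:WTp53 than GDF15 does. Those beside GDF9 turn down with it, most of them also with tethered WTp53, where only SERPINB5 passed limma over all arrays.

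Of 31 other ligands of the superfamily 30 were measured, and 0 of them exceeded vector as far as GDF15 or GDF9 with WTp53 in either set. With ΔNp53:WTp53 4 of the 30, and with tethered WTp53 2 of them, exceeded vector by more than GDF9 did. With WTp53 9 rose in the first set (30% called, against 43.7% of all genes). In the second set 2 rose and 1 fell (10% called, against 19.6% of all genes). GDF6, a bone morphogenetic protein, rose by 1.26 ± 0.15 and 0.50 ± 0.15 (limma adjusted p = 3.01e-06 and 0.0247). Between ΔNp53:WTp53 and WTp53 1 ligand was higher and 2 were lower (10%, against 14.6% of all genes), with a median of −0.03. NODAL, a ligand of early embryonic patterning, was lower at −0.73 ± 0.19 and GDF2, an endothelial ligand, at −0.26 ± 0.08, whereas TGFB2 was higher at 0.41 ± 0.10 (limma adjusted p = 0.0167, 0.0457 and 0.0126). None of these 3 passed when fitted on that set's 9 arrays (limma adjusted p = 0.118 to 0.226). Between tethered WTp53 and WTp53 1 ligand passed (3.33%, against 10.1% of all genes), and it was again TGFB2 (0.39 ± 0.10, limma adjusted p = 0.0229). Its difference from vector was 0.02 ± 0.10 with WTp53 of the first set and 0.54 ± 0.10 with that of the second (limma adjusted p = 0.878 and 0.00106). BMP15, the partner of GDF9, differed from vector by 0.38 ± 0.10 with WTp53 of the first set and −0.16 ± 0.10 with that of the second (limma adjusted p = 0.00593 and 0.355), and it did not pass between either construct and WTp53. Leaving out 1 array ended some of these calls. In the comparison of ΔNp53:WTp53 with WTp53 NODAL lost its call without the WTp53 array of experiment 4 or 5 (limma adjusted p = 0.0825 and 0.0835), and TGFB2 without either array of experiment 4 (limma adjusted p = 0.0664 and 0.0649). GDF2 lost it without either array of experiment 4, the WTp53 array of experiment 5 or the ΔNp53:WTp53 array of experiment 0 (limma adjusted p = 0.0748 to 0.188). In the second set TGFB2 kept its call between tethered WTp53 and WTp53 only without the tethered array of experiment f (limma adjusted p otherwise 0.0508 to 0.101). GDF6 kept its call with WTp53 only without the vector array of experiment d (limma adjusted p otherwise 0.0619 to 0.0949). Both calls held with all arrays of the second set fitted alone (limma adjusted p = 0.00103 for TGFB2 and 1.69e-04 for GDF6).

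Of 17 receptors and co-receptors of the superfamily 15 were measured. With WTp53 8 rose and 2 fell in the first set, and 4 rose in the second (66.7% and 26.7% called, against 43.7% and 19.6% of all genes). TGFBR1, the type I receptor that GDF9 uses, rose by 1.63 ± 0.12 with WTp53 of the first set and 0.90 ± 0.12 with that of the second (limma adjusted p = 2.92e-08 and 6.98e-05). BMPR2 rose by 0.57 ± 0.09 and 0.40 ± 0.09 (limma adjusted p = 4.40e-05 and 0.00352). BAMBI, a decoy receptor without a kinase domain, showed the largest rise of the list, by 3.19 ± 0.19 and 2.32 ± 0.19 (limma adjusted p = 1.82e-09 and 2.54e-07). GFRAL, the receptor of GDF15, did not pass in any of the 6 comparisons, with differences from −0.08 to 0.06. RET was not analysed here. With ΔNp53:WTp53 2 of the 15 were higher than with WTp53 (13.3%, against 14.6% of all genes). These were the activin receptors ACVR1C and ACVR1, by 0.97 ± 0.19 and 0.77 ± 0.15 (limma adjusted p = 0.0026 and 0.00312, and 0.0549 and 0.0637 with the first set fitted alone). ACVR1C was also higher with tethered WTp53 than with WTp53, by 1.17 ± 0.19 (limma adjusted p = 0.00123), and exceeded vector by 1.11 ± 0.19 and 0.71 ± 0.19 with WTp53 of each set.

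Of 14 SMADs and their regulators, which carry the signal to the nucleus, 5 rose and 6 fell with WTp53 in the first set and 4 rose in the second (78.6% and 28.6% called, against 43.7% and 19.6% of all genes). The inhibitory SMAD7 rose by 1.54 ± 0.21 and 1.52 ± 0.21, and SMAD5, which serves bone morphogenetic proteins, by 1.33 ± 0.12 and 0.79 ± 0.12 (limma adjusted p at most 1.95e-04 in each). The corepressor SKIL fell by 1.43 on the log2 scale in the first set (limma adjusted p = 1.17e-06). With ΔNp53:WTp53 4 of the 14 were higher than with WTp53 (28.6%, against 14.6% of all genes), with TGIF1, another corepressor, at 0.68 ± 0.09, the shared partner SMAD4 at 0.46 ± 0.06 and ZFYVE9, which presents SMADs to receptors, at 0.40 ± 0.09 (limma adjusted p = 1.41e-04, 1.56e-04 and 0.00913). These 3 also passed with the first set fitted alone. Against vector SMAD4 lay at −0.43 ± 0.06 and ZFYVE9 at −0.24 ± 0.09 with WTp53 of that set. With ΔNp53:WTp53 they lay at 0.03 ± 0.06 and 0.16 ± 0.09 against vector (limma adjusted p = 0.709 and 0.185). TGIF1 was the 1 member higher with tethered WTp53 than with WTp53, by 0.58 ± 0.09 (limma adjusted p = 9.80e-04). It exceeded vector by 0.29 ± 0.09 and 0.45 ± 0.09 with WTp53 of each set.

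Of 11 extracellular antagonists, which bind ligands and keep them from receptors, 9 were measured and 4 rose with WTp53 in each set (44.4%, against 43.7% and 19.6% of all genes). NOG (noggin) rose by 2.28 ± 0.21 and 1.02 ± 0.21, and FSTL3 by 0.39 ± 0.10 and 0.40 ± 0.10 (limma adjusted p at most 0.00800 in each). With ΔNp53:WTp53 FST (follistatin) was higher than with WTp53 by 0.68 ± 0.11 and NOG by 0.68 ± 0.21 (limma adjusted p = 6.73e-04 and 0.0394, and 0.0379 and 0.218 with the first set fitted alone). The NOG call ended without either array of experiment 4, the WTp53 array of experiment 0 or the ΔNp53:WTp53 array of experiment 5 (limma adjusted p = 0.0698 to 0.186). With tethered WTp53 FSTL3 was higher than with WTp53 by 0.61 ± 0.10 (limma adjusted p = 0.00135). NOG differed there by 0.67 ± 0.21 (limma adjusted p = 0.0537, and 4.64e-05 with the second set fitted alone). For FST the difference was 0.28 ± 0.11 (limma adjusted p = 0.115, and 0.00110 with the second set fitted alone). Of 9 genes known to respond to SMAD signalling 8 were measured, and 4 rose with WTp53 in each set while 1 fell in the first (62.5% and 50% called, against 43.7% and 19.6% of all genes). ID2 rose by 2.42 ± 0.20 and 1.55 ± 0.20, PTGS2, a prostaglandin synthase induced by GDF9 in ovarian cells, by 1.57 ± 0.17 and 1.06 ± 0.17, and PTX3 by 0.61 ± 0.13 and 0.68 ± 0.13 (limma adjusted p at most 0.00135 in each). PTGS2 was lower with ΔNp53:WTp53 than with WTp53 at −0.94 ± 0.17 and PTX3 was higher at 0.64 ± 0.13 (limma adjusted p = 0.00162 and 0.00393, and 0.0540 and 0.0621 with the first set fitted alone). None of the 8 passed between tethered WTp53 and WTp53 in this fit, where PTGS2 showed −0.15 ± 0.17 and ID2 −0.42 ± 0.20 (limma adjusted p = 0.656 and 0.208). With the second set fitted alone the limma adjusted p of ID2 was 3.47e-04, and with 6 arrays it was 0.0026.

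The convertases include a gene with the same signs as GDF15. PCSK5 rose with WTp53 by 1.83 ± 0.08 and 0.94 ± 0.08 (limma adjusted p = 1.58e-10 and 1.01e-06). It was lower with ΔNp53:WTp53 than with WTp53 at −0.46 ± 0.08 (limma adjusted p = 0.00195, and 0.0558 with the first set fitted alone) and higher with tethered WTp53 by 0.73 ± 0.08 (limma adjusted p = 1.35e-04). FURIN, which cuts many precursors of the family, was higher than with WTp53 in both cases, by 0.50 ± 0.08 and 0.41 ± 0.08 (limma adjusted p = 8.59e-04 and 0.00565). With WTp53 FURIN rose by 0.82 ± 0.08 and 0.44 ± 0.08, and PCSK7 fell by 0.81 and 0.44 (limma adjusted p at most 0.0108 in each). PCSK6 was lower with ΔNp53:WTp53 than with WTp53 at −0.30 ± 0.08 (limma adjusted p = 0.0176, and 0.117 with the first set fitted alone). The PCSK6 call ended without either array of experiment 4 (limma adjusted p = 0.0733 and 0.0748), and the second PCSK7 call without the vector array of experiment f (limma adjusted p = 0.0538).

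Of 12 stress regulators known to raise GDF15, all measured, 2 rose and 6 fell with WTp53 in the first set, and 1 rose and 5 fell in the second (66.7% and 50% called, against 43.7% and 19.6% of all genes). HIF1A, the hypoxia factor, rose by 0.93 ± 0.10 in the first set and ATF3 by 0.63 ± 0.12 in the second (limma adjusted p = 8.98e-07 and 0.00142). In the other set their differences were 0.17 for HIF1A and 0.14 for ATF3 (limma adjusted p = 0.294 and 0.397). DDIT3, a factor of the integrated stress response, fell by 1.68 and 1.21, JUN by 1.33 and 0.59, and EGR1 by 1.41 and 0.99 (limma adjusted p at most 0.00197 in each). CEBPB and XBP1 were higher with ΔNp53:WTp53 than with WTp53, by 0.50 ± 0.12 and 0.36 ± 0.09, and HIF1A was lower at −0.30 ± 0.10 (limma adjusted p = 0.00965, 0.0143 and 0.0498, and at least 0.122 with the first set fitted alone). The HIF1A call ended without any 1 of the 6 arrays (limma adjusted p = 0.0504 to 0.133), and the XBP1 call without either array of experiment 4 or of experiment 5 (limma adjusted p = 0.0502 to 0.0679). Between tethered WTp53 and WTp53, where GDF15 was higher, EGR1 was higher by 0.89 ± 0.20, ATF3 by 0.85 ± 0.12 and JUN by 0.43 ± 0.09 (limma adjusted p = 0.00982, 5.81e-04 and 0.00861). DDIT3 differed there by 0.65 ± 0.21 (limma adjusted p = 0.0548, and 3.83e-05 with the second set fitted alone) and ATF4 by −0.17 ± 0.07 (limma adjusted p = 0.175). Group means with tethered WTp53 and with vector were 12.20 and 12.29 for EGR1, 10.62 and 10.78 for JUN, and 11.03 and 11.58 for DDIT3. For ATF3 they were 9.78 and 8.29, so of these genes only ATF3 lay above vector. The part of the stress regulators in the level of GDF15 was not tested.

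**Figure D4:**
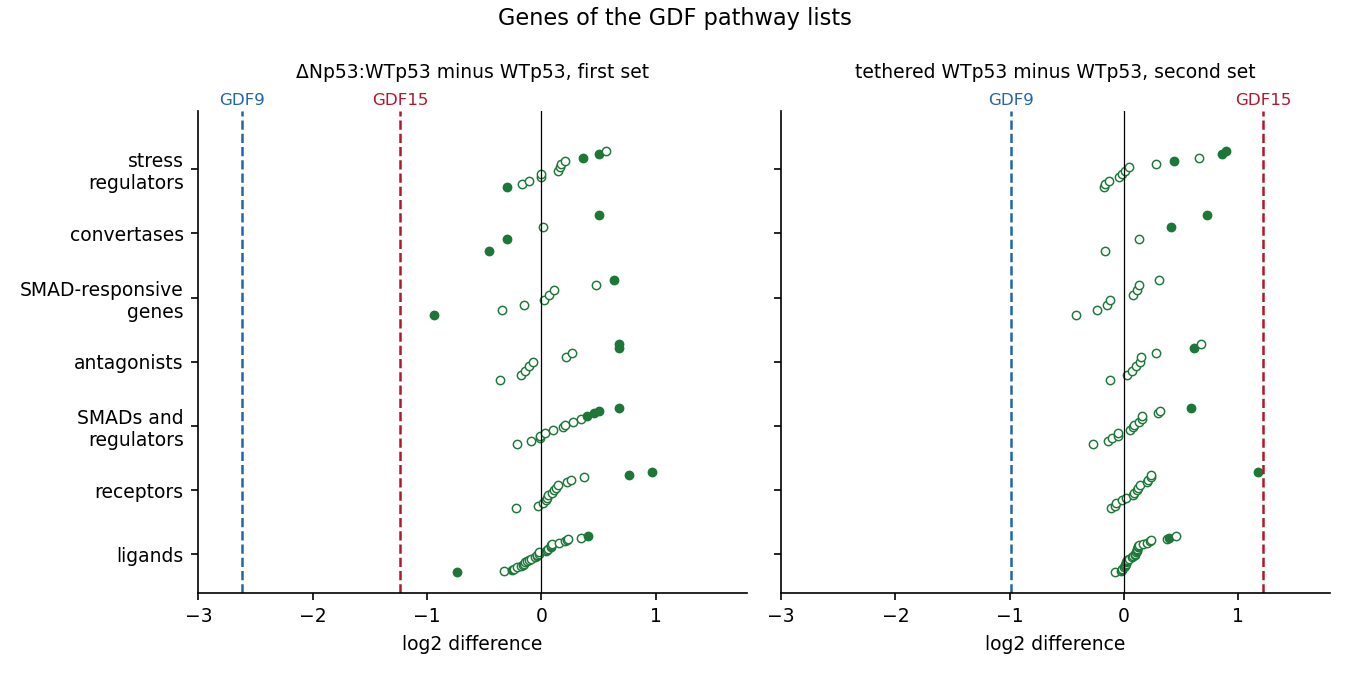
Log2 differences from WTp53 for the genes of the 7 pathway lists, with ΔNp53:WTp53 on the left and tethered WTp53 on the right; filled points passed limma at an adjusted p under 0.05, open points did not, and dashed lines mark GDF15 and GDF9. Of the 92 measured genes 0 lie below the GDF15 line (−1.23) on the left, and 0 lie above it (1.22) on the right.

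Over the 7 pathway lists together 92 of 98 genes were measured. Of these 19 differed between ΔNp53:WTp53 and WTp53, 13 up and 6 down (20.7%, against 14.6% of all genes). The count was 5 with the first set fitted alone and 0 with the 6 arrays of the comparison alone. In these fits 2.44% and 0.521% of all genes passed, so the share of all genes fell as well. The count was 33 without the ΔNp53:WTp53 array of experiment 0 and 12 without that of experiment 4. The share of all genes without these arrays is not given here. Between tethered WTp53 and WTp53 9 were higher and 0 lower (9.78%, against 10.1% of all genes). With the second set fitted alone 31 passed, and so did 32.4% of all genes.

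Of 16 other genes of the oocyte, where GDF9 is normally made, 15 were measured, BMP15 among them. With WTp53 7 rose in the first set and 1 in the second (46.7% and 6.67%, against 43.7% and 19.6% of all genes). Between ΔNp53:WTp53 and WTp53 2 were lower (13.3%, against 14.6% of all genes), and 0 passed between tethered WTp53 and WTp53. The 2 were DAZL, an RNA-binding protein of germ cells, and PADI6, an enzyme of the oocyte cytoplasm, singled out after their values were seen. DAZL exceeded vector by 0.98 ± 0.11 with WTp53 of the first set and lay at −0.84 ± 0.11 between ΔNp53:WTp53 and WTp53 (limma adjusted p = 2.53e-06 and 1.62e-04). PADI6 showed 0.83 ± 0.10 and −0.79 ± 0.10 in these comparisons (limma adjusted p = 4.18e-06 and 1.20e-04). The list's median was −0.11 between ΔNp53:WTp53 and WTp53 and 0.03 between tethered WTp53 and WTp53.

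The genes beside GDF15 and GDF9 on their chromosomes showed differences well below those of the pair. The 3 nearest measured genes on either side of GDF15 were JUND, LSM4, PGPEP1, LRRC25, SSBP4 and ISYNA1. Their differences ran from −0.33 to 0.23 between ΔNp53:WTp53 and WTp53 and from −0.21 to 0.36 between tethered WTp53 and WTp53. PGPEP1, the nearest at lower coordinates, showed 0.23 ± 0.08 and 0.36 ± 0.08 (limma adjusted p = 0.0682 and 0.00944). LSM4 was lower with ΔNp53:WTp53 than with WTp53 at −0.33 ± 0.07 and ISYNA1 was higher at 0.22 ± 0.05 (limma adjusted p = 0.00346 and 0.0103, and 0.0844 and 0.161 with the first set fitted alone). JUND, a component of AP-1, was higher with tethered WTp53 than with WTp53 at 0.28 ± 0.07 (limma adjusted p = 0.0201). Beside GDF9 lay SEPTIN8, SOWAHA, SHROOM1, UQCRQ, LEAP2 and AFF4. UQCRQ, the head-to-head neighbour, was the 1 of these 6 to pass in either comparison with WTp53. It was lower than with WTp53 at −0.41 ± 0.05 with ΔNp53:WTp53 and at −0.22 ± 0.05 with tethered WTp53 (limma adjusted p = 1.23e-04 and 0.0163). With WTp53 UQCRQ exceeded vector by 0.31 ± 0.05 in the first set and by 0.12 ± 0.05 in the second (limma adjusted p = 1.41e-04 and 0.125). Against vector UQCRQ lay at −0.10 ± 0.05 with ΔNp53:WTp53 and −0.09 ± 0.05 with tethered WTp53 (limma adjusted p = 0.127 and 0.210), where GDF9 was higher than vector. Whether the array or its labelling could carry signal from a gene to its overlapping neighbour was not tested.

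**Figure D5:**
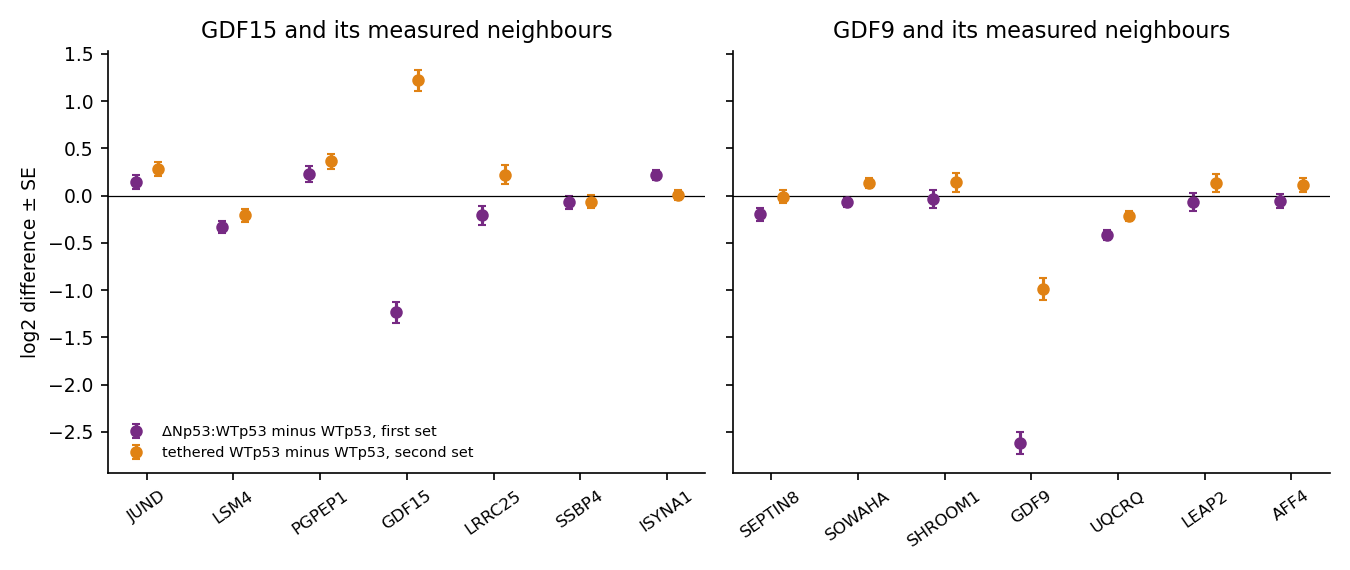
Log2 difference ± SE of GDF15 (left), GDF9 (right) and the 3 nearest measured genes on either side, in chromosomal order but not to scale, for ΔNp53:WTp53 minus WTp53 (purple) and tethered WTp53 minus WTp53 (orange). GDF15 and GDF9 stand apart from their neighbours, and UQCRQ lies below 0 in both comparisons.

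Markers of epithelial and other cells were set beside the pair. Of 9 epithelial and lung markers KRT18, an epithelial keratin, read highest in every group (10.3 with vector in the first set and 11.5 in the second) and EPCAM read lowest (2.95 and 5.58). Such levels also depend on the probes, and detection calls were not used here, so absence could not be shown. Of these 9, KRT8 was higher and SFTPC, a surfactant protein, was lower with ΔNp53:WTp53 than with WTp53 (0.53 and −0.73, limma adjusted p = 0.0325 and 0.0182), and 0 passed between tethered WTp53 and WTp53. Both GDF15 and GDF9 were lower with ΔNp53:WTp53, as SFTPC was and KRT8 was not. Of 5 leukocyte markers CD79A and TYROBP were lower with ΔNp53:WTp53 than with WTp53 (−0.32 and −0.29, limma adjusted p = 0.00129 and 0.0176), and CD79A was also lower with tethered WTp53 (−0.32, limma adjusted p = 0.00239). The 2 of 9 and 2 of 5 called with ΔNp53:WTp53 stand against 14.6% of all genes. CD79A, a B cell receptor component, exceeded vector by 0.28 and 0.38 with WTp53 of the first and the second set (limma adjusted p = 5.78e-04 and 1.37e-04). With ΔNp53:WTp53 and tethered WTp53 its differences from vector were −0.04 and 0.06 (limma adjusted p = 0.598 and 0.472). These markers were singled out after their values were seen, and with the first set fitted alone none of the 4 passed between ΔNp53:WTp53 and WTp53 (limma adjusted p = 0.0532 for CD79A and at least 0.149 for the others). The summed log2 level of the 5 leukocyte markers was 19.9 to 20.5 with WTp53 and 19.1 to 19.9 with ΔNp53:WTp53, and 30.9 to 31.2 with WTp53 and 30.4 to 30.9 with tethered WTp53. PTPRC, the common leukocyte marker, showed a difference of −0.0013 between ΔNp53:WTp53 and WTp53, and of 7 fibroblast and endothelial markers 0 passed between either construct and WTp53. The part of these markers in the result was not tested.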

How the data were processed

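RNA of 18 samples of transfected H1299 cells was measured on Affymetrix Gene arrays. The authors deposited log2 values in 1 table of 33297 probe sets, and the submitters' processing notes name RMA and Affymetrix Expression Console, with versions and genome build not given in the sources used here. Of the probe sets 19460 had 1 gene symbol, 1754 had several and 12083 were unlisted and stayed unnamed; the highest-mean probe set stood for each of 18417 genes. Groups were taken from the titles. Gene means per group were fitted with limma 3.58.1 in R 4.3.3 over all 18 arrays, with 6 contrasts within sets and Benjamini-Hochberg adjustment over all genes (0.05), and the script was tested on simulated data. GDF15, GDF9 and all gene lists were chosen with earlier results of these data known. Genes named are the pair, 3 reference targets, up to 3 called genes per pathway list and comparison by p, fixed receptors and BMP15, 3 neighbours on each side and the 5 nearest profiles. Residuals of same-numbered arrays correlated at 0.106 to 0.572 in the first set, where the numbers mark shared experiments, and at −0.039 to 0.132 in the second. Promoter windows came from RefSeq (GRCh38.p14). Alternatives were other sources of spread, an experiment block, quantile normalization and leaving out arrays.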

Additional observations from a re-analysis of the deposited data

Results flagged for a closer look

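WTp53 against vector was measured in both sets, and its effect differed between them for 12 of the compared genes by limma's test of the difference itself, with Benjamini-Hochberg adjustment over all genes. Each value is the first set's log2 effect minus the second's, and the sets were normalized apart. For all of these genes but TGFB2 the effect was larger in size in the first set. The share of all genes that pass this test is not given here. A general difference between the sets and a difference of these genes therefore cannot be told apart. Among p53 targets the difference was 1.49 for CDKN1A, 1.30 for MDM2 and 0.85 for SERPINB5 (limma adjusted p = 0.00476, 3.61e-04 and 0.00675). Among receptors and antagonists it was 0.73 for TGFBR1, 0.87 for BAMBI and 1.26 for NOG (limma adjusted p = 0.0148, 0.0402 and 0.0130). Among ligands it was 0.53 for BMP15, 0.76 for GDF6 and −0.52 for TGFB2 (limma adjusted p = 0.0246, 0.0268 and 0.0282). For the convertases FURIN and PCSK5 it was 0.38 and 0.89, and for JUN it was −0.73 (limma adjusted p = 0.0461, 8.04e-04 and 0.00331). The other genes compared did not pass (limma adjusted p = 0.0503 to 0.982). They were GFRAL, BMPR2, ACVR1C, SMAD7, SMAD5, TGIF1, FSTL3, ID2, PTGS2, PTX3, PCSK7, DDIT3, EGR1 and UQCRQ.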

How the results depend on the processing

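All 12 differences of GDF15 and GDF9 kept their sign under each alternative run. Other sources of spread and the experiment block leave a difference of group means unchanged. Groups that do not overlap keep the sign of their difference when arrays are left out. For those runs the sign was thus fixed in advance and is no support for the differences. Only the GDF15 difference between WTp53 and vector of the second set moved by more than the replicate spread, to 2.54 after quantile normalization. Counts depended on the arrays that supplied the spread. Between ΔNp53:WTp53 and WTp53 19 pathway genes became 5 with the set fitted alone and 0 with its 6 arrays. In these fits 2.44% and 0.521% of all genes passed. The 19 became 37 without any array of experiment 0 (an alternative chosen after seeing the data), and 12 to 33 with 1 array left out. The share of all genes with 1 array left out is not given here, so such ranges cannot be set against it. The 7 p53 targets became 3 and 1 with the set and the 6 arrays, and 6 to 10 with 1 array left out. Between tethered WTp53 and WTp53 9 pathway genes became 31 with the set alone and 29 with 6 arrays. In these fits 32.4% and 28.6% of all genes passed. The 8 p53 targets became 13 with the set alone and 4 to 6 with 1 array left out. For WTp53 against vector of the second set 28 pathway genes became 44 and 45, where 36.8% and 38.3% of all genes passed. Over all 18417 genes, the counts of these comparisons were 2693, 1855 and 3603 in the order given. They became 449, 5970 and 6769 with the set alone, 96, 5274 and 7061 with 6 arrays, and 5450, 4549 and 5740 without experiment 0. With the experiment number as a replicate block they were 3291, 2351 and 4140, and 0 of 84 named calls ended under the block. Of these 84 calls 15 ended with the set alone and 19 with 6 arrays, and 0 reversed. With 3 arrays a group and no detection calls used, small differences near background could not be judged.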
